A study of Danio rerio with 6 samples.

Results

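NRARP (ENSDARG00000091419) and EFNB2 (ENSDARG00000020164) are genes that Notch signalling is known to turn on in blood vessels, and they were followed here in endothelial cells of the regenerating zebrafish heart. They are 2 of 32520 gene rows, and both passed the filter on low counts that left 3792 rows for testing. The rows were chosen by their measured values, the higher counts in cells with a blocked Brg1. Their difference between the groups is therefore given as a description, with its error and with no test. Of all tested genes 7.12% passed the threshold for a difference in either direction (edgeR adjusted p below 0.05), and the count of members is not read against that share.

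Notch receptors are cleaved when a ligand on a neighbouring cell binds them, and the freed intracellular domain enters the nucleus and joins the DNA-binding protein RBPJ to activate target genes. NRARP, the Notch-regulated ankyrin repeat protein, is such a target and acts as a brake, since it binds the intracellular domain and lowers its level. Ephrin-B2, the product of EFNB2, is a membrane-bound ligand of Eph receptors that marks arterial endothelium, where its expression depends on Notch. Brg1 is the ATP-hydrolysing subunit of SWI/SNF, a complex that moves nucleosomes, and the series title names a link between endothelial Brg1 and Notch in heart regeneration.

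RNA was sequenced from adult Tu zebrafish at 7 days after part of the ventricle was resected. GFP-positive cells carrying the kdrl:eGFP reporter, which marks endothelium, were sorted from the ventricles of about 15 hearts, so a library is a pool of fish. Fish of both groups carried kdrl:eGFP and a ubi-driven transgene in which a floxed DsRed-stop cassette silences a dominant-negative Xenopus Brg1 (DN-xBrg1). DNK fish also carried kdrl:CreER, so that 4-HT (4-hydroxytamoxifen), given for 3 days before resection, switched the transgene on in kdrl-expressing cells. By the treatment protocol CtrlK fish had no CreER and received 4-HT too, whereas another label calls them untreated and the design text wild-type siblings. Effects of CreER, and of 4-HT if CtrlK fish had none, cannot be told apart from those of DN-xBrg1. Each group had 3 libraries, and nothing says whether these were independent pools, so the p-values cover only the variation among these libraries, which may be technical.

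The gene rows held 174371 to 227373 counts per library, and 3 counts correspond to 13.2 to 17.2 CPM of that total (counts scaled to a common library total). The normalized CPM below use TMM-scaled counts of the tested genes only and run higher. On that scale the 3 counts of notch2 in CtrlK replicate 2 came to 16.5. Gene rows held 1.08% to 1.27% of a table's total in CtrlK and 1.47% to 1.48% in DNK. Reads outside genes, 1 of the 5 rows that name no gene, came to 4.85 to 6.0 per gene count in CtrlK and 3.18 to 3.73 in DNK. This last ratio separated the groups. Of 15 endothelial marker rows 14 had counts, kdrl among them, and the sole row at 0 was 1 of the CLDN5 copies. These markers made up 0.111% to 0.185% of gene counts in CtrlK and 0.193% to 0.229% in DNK. Macrophage and neutrophil markers, with lyz and mmp13a at 0 and 10 of 12 rows detected, made up 0.0579% to 0.109% and 0.120% to 0.147%. Fibroblast and mural markers, detected in 16 of 16 rows, made up 0.123% to 0.150% and 0.156% to 0.164%. Lymphocyte markers, with a cd79a row at 0 and 9 of 10 detected, made up 0.0405% to 0.0533% and 0.0161% to 0.0185%. The lymphocyte sum was mostly cd8a, with 221 counts in CtrlK and 79 in DNK, while RAG2 had 5 and 13. The first 3 sums were thus higher in every DNK library, as NRARP was, and their part in the differences below was not tested. The endothelial and fibroblast sums rested in part on single rows. vwf had 26, 31 and 63 counts in CtrlK and 123, 91 and 118 in DNK. Its log2 change was 1.59 ± 0.36 (SE, edgeR adjusted p = 0.0179). COL1A2 had 16, 16 and 31 and 67, 60 and 44 (1.54 ± 0.37, adjusted p = 0.0229). The vwf call was lost without any 1 of 3 libraries, that of COL1A2 without any 1 of 4. Of tested rows 7 of 7 endothelial and 7 of 10 fibroblast and mural ones were positive, against 46.9% of all tested genes. The col1a1a row and both MYH11 rows were negative. Cardiomyocyte markers (0.0666% to 0.0794% and 0.0642% to 0.0958%) and those of erythrocytes and thrombocytes (0.0264% to 0.0360% and 0.0234% to 0.0354%) overlapped between the groups. The cardiomyocyte rows did not move as one. MYL7, cmlc1 and atp2a2a, 3 of 5 tested, were higher in every DNK library, as NRARP was and as were 16.2% of all tested genes. TNNT2 and RYR2 were lower on average. atp2a2a passed the test (log2 fold change 2.03 ± 0.58, SE, edgeR adjusted p = 0.0453), a call lost without any 1 of the 6 libraries. It was not called by DESeq2 (adjusted p = 0.0782) or limma-voom (0.171). With 4, 5 and 2 counts in CtrlK, it passed the filter on low counts only through its DNK libraries. The tnnc1a row, too sparse to test, had 1 count in CtrlK and 25 in DNK. The part of these rows was not tested either. In such bulk libraries more cells of a type and more RNA per cell cannot be told apart.

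NRARP was higher in each DNK library than in any CtrlK library. CtrlK replicates 1, 2 and 3 had 142, 143 and 258 counts, and DNK replicates 1, 2 and 3 had 465, 437 and 380. As normalized CPM (CPM after TMM scaling) these were 906, 788 and 1392 in CtrlK and 2837, 2580 and 2458 in DNK. The highest CtrlK library, replicate 3, lay well below the lowest DNK library, so the groups did not overlap. The group means were 1029 ± 320 and 2625 ± 194 CPM (SD, n = 3 each), and the fitted difference was 2.55-fold, a log2 fold change of 1.35 ± 0.27 (SE). Of all tested genes, 16.2% had every DNK library above every CtrlK library, and nothing is read from NRARP being one of them, since its difference chose it.

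EFNB2 had a similar mean difference but was not high in every DNK library. Its counts were 16, 20 and 32 in CtrlK replicates 1, 2 and 3, and 20, 79 and 60 in DNK replicates 1, 2 and 3. The corresponding levels were 102, 110 and 173 normalized CPM in CtrlK and 122, 466 and 388 in DNK. DNK replicate 1 lay within the CtrlK range and the groups overlapped, while DNK replicates 2 and 3 were above all CtrlK libraries. The exact 95% Poisson interval of its 20 counts was 12.2 to 30.9 and that of the 79 counts in DNK replicate 2 was 62.5 to 98.5, so these intervals did not overlap. Such intervals cover the counting error of reads only. The amplified reads carry no molecular identifiers, so reads may not be independent molecules and the intervals may be too narrow. The means were 128 ± 38.6 and 326 ± 181 CPM (SD, n = 3 each), a fitted log2 fold change of 1.33 ± 0.46 (SE), or 2.52-fold. Without DNK replicate 1 the log2 fold change was 1.76, and without DNK replicate 2 it was 1.01.

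**Figure D1:**
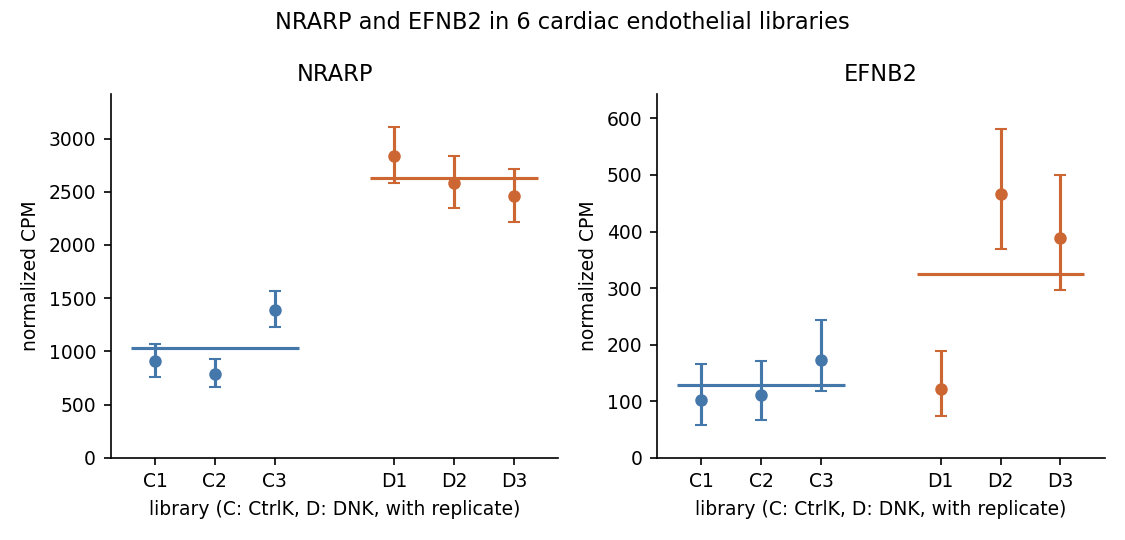
Normalized CPM of NRARP and EFNB2 in each library (C1 to C3, CtrlK; D1 to D3, DNK). Points are libraries, bars exact 95% Poisson intervals of the counts and lines group means. All 3 DNK libraries are above CtrlK for NRARP (2458 to 2837 against 788 to 1392), while DNK replicate 1 sits among the CtrlK libraries for EFNB2 (122).

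The genes also differed in where their spread lay. For NRARP the coefficient of variation was 31.1% in CtrlK, where counting alone would give 7.43%, and 7.37% in DNK, where it would give 4.84%. For EFNB2 it was 30.1% in CtrlK, against 21.0% from counting, and 55.5% in DNK, against 13.7%. The median over all tested genes was 32.9% in CtrlK and 29.6% in DNK. NRARP was therefore tight in DNK and EFNB2 wide, and in CtrlK much of the spread of EFNB2 was of the size of its counting error. The counts of NRARP per count of EFNB2, a ratio that no scaling of libraries affects, were 8.88, 7.15 and 8.06 in CtrlK replicates 1, 2 and 3. In DNK they were 23.3, 5.53 and 6.33, so that DNK replicate 1 stood apart from the other 5 libraries.

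Each gene has a second row under its name, and nearly all counts of the name fell on the row described. The other NRARP row (ENSDARG00000018958) had 1, 2 and 5 counts in CtrlK and 2, 7 and 3 in DNK, so 98.1% to 99.6% of NRARP counts in a library came from ENSDARG00000091419. The groups overlapped for this second row, and its summed counts of 8 and 12 gave a ratio of 1.38 relative to all gene counts (95% counting interval 0.518 to 3.89). The other EFNB2 row (ENSDARG00000074050) had 0, 1 and 0 counts in CtrlK and 3, 2 and 3 in DNK. Its ratio on the same scale was 7.35 (95% counting interval 0.985 to 326). Each DNK library was above each CtrlK library there, DNK replicate 1 included, but on 9 counts in all. The ratios of these second rows lack the TMM scaling of the fold changes above, which would raise the ratios and their limits. Counts were not divided by transcript length, and how reads shared by the copies were assigned is not given in the sources used here.

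Of the 4 Notch receptor rows, notch2 had the profile closest to NRARP. It had 5, 3 and 9 counts in CtrlK replicates 1, 2 and 3 and 20, 19 and 15 in DNK replicates 1, 2 and 3, or 31.9, 16.5 and 48.5 against 122, 112 and 97.0 normalized CPM. Within each group its libraries stood in the same order as those of NRARP, with CtrlK replicate 3 and DNK replicate 1 highest. Closeness was measured as the root-mean-square difference of log2 CPM over the 6 libraries, each gene centred on its own mean. It was 0.15 between NRARP and notch2, 0.56 and 0.64 between NRARP and the NOTCH1 rows ENSDARG00000103554 and ENSDARG00000052094, and 0.88 between NRARP and NOTCH3. At 3 to 20 counts a library the order of notch2 within a group is inside its counting error. The log2 CPM include a prior count of 2, which shrinks differences at such counts. The 0.15 is therefore smaller than the counts alone would give, and NRARP counts per notch2 count ran from 23.0 to 47.7.

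NOTCH1 ENSDARG00000052094 shared the direction of NRARP but not its order within either group. Its levels were 25.5, 49.6 and 124 normalized CPM in CtrlK and 268, 248 and 440 in DNK, with the groups apart. CtrlK replicate 3 was the highest control, as for both NRARP and EFNB2, but DNK replicate 3, where NRARP was lowest, was its highest library. NOTCH1 ENSDARG00000103554 had 140, 121 and 97.1 CPM in CtrlK and 214, 183 and 149 in DNK, so that its groups lay side by side without overlap and CtrlK replicate 3 was its lowest library. NOTCH3 had 140, 33.1 and 113 CPM in CtrlK and 91.5, 53.1 and 123 in DNK and overlapped. In these fits across all genes NOTCH1 ENSDARG00000052094 rose (log2 fold change 2.23 ± 0.49, SE, edgeR adjusted p = 0.0162) and so did notch2 (1.75 ± 0.49, adjusted p = 0.0453). The other NOTCH1 row (0.61 ± 0.39, adjusted p = 0.359) and NOTCH3 (−0.10 ± 0.55, adjusted p = 0.925) did not pass.

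**Figure D2:**
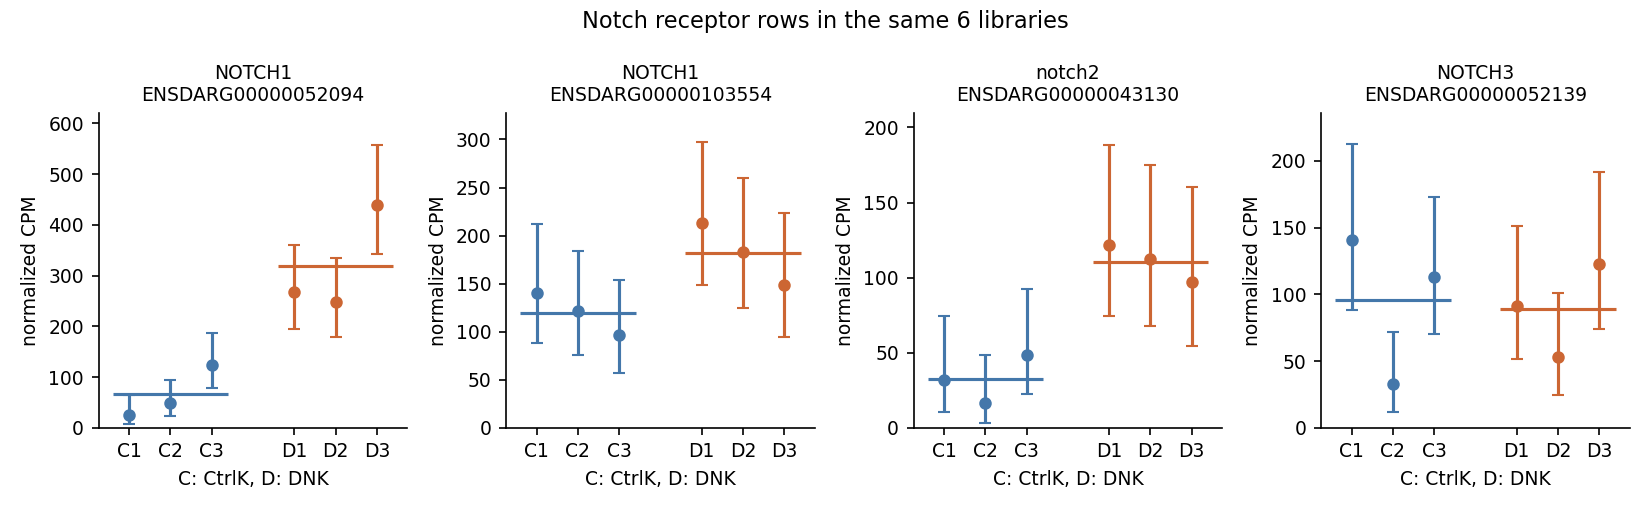
Normalized CPM of the 4 Notch receptor rows in each library (C1 to C3, CtrlK; D1 to D3, DNK), with exact 95% Poisson intervals of the counts and group means as lines. DNK libraries are above CtrlK for notch2 (97.0 to 122 against 16.5 to 48.5) and for NOTCH1 ENSDARG00000052094 (248 to 440 against 25.5 to 124), and the groups overlap for NOTCH3.

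EFNB2 was not close to any receptor row over the 6 libraries. Its root-mean-square difference was 0.71 from notch2, 0.82 and 0.87 from NOTCH1 ENSDARG00000103554 and ENSDARG00000052094, 1.05 from NOTCH3 and 0.65 from NRARP. In DNK replicate 1, where EFNB2 was lowest (a log2 deviation of −1.14 from its group mean), notch2 was 0.14 and NOTCH1 ENSDARG00000103554 was 0.23 above their own group means. NOTCH1 ENSDARG00000052094 was on the same side of its group mean as EFNB2 in 5 of 6 libraries and as NRARP in 4 of 6. For notch2 these counts were 3 with EFNB2 and 4 with NRARP, and for NOTCH3 also 3 and 4. For NOTCH1 ENSDARG00000103554 they were lower, 1 with EFNB2 and 2 with NRARP. Deviations sum to 0 within a group, so the libraries do not count independently. With 2 groups of 3 libraries that differ in level, no correlation over the 6 was computed, and whether either gene follows a receptor within a group cannot be tested.

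Relative to the receptors' counts, the result depended on which receptor rows were used. Per count of the 4 rows summed, NRARP overlapped between the groups. The 4 receptor rows together had 53, 40 and 71 counts in CtrlK replicates 1, 2 and 3 and 114, 101 and 125 in DNK. NRARP counts per receptor count were 2.68, 3.58 and 3.63 in CtrlK and 4.08, 4.33 and 3.04 in DNK, with means of 3.30 ± 0.535 and 3.82 ± 0.683 (SD, n = 3 each). DNK replicate 3 was below CtrlK replicates 2 and 3, and the means differed by less than the SD of either group. For EFNB2 the ratio was 0.302, 0.500 and 0.451 in CtrlK and 0.175, 0.782 and 0.480 in DNK, and the DNK libraries lay on both sides of the CtrlK range. Taken per single receptor row, NRARP did not give the same picture. Per count of NOTCH1 ENSDARG00000052094 it was 35.5, 15.9 and 11.2 in CtrlK and 10.6, 10.4 and 5.59 in DNK. Per count of notch2 it was 28.4, 47.7 and 28.7 in CtrlK and 23.3, 23.0 and 25.3 in DNK. Both ratios were thus lower in every DNK library than in any CtrlK library, but narrowly (10.6 against 11.2 and 25.3 against 28.4). The 2 rows had only 3 to 23 counts in a CtrlK library. Whether they differed more between the groups than NRARP did was not tested. Per count of NOTCH1 ENSDARG00000103554 it was 6.45, 6.50 and 14.3 in CtrlK and 13.3, 14.1 and 16.5 in DNK. Per count of NOTCH3 it was 6.45, 23.8 and 12.3 in CtrlK and 31.0, 48.6 and 20.0 in DNK. These last ratios were higher in DNK on average, and their groups overlapped. None of the ratios depends on how libraries are scaled. Their size reflects transcript lengths as well as levels, so it is compared between libraries only.

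**Figure D3:**
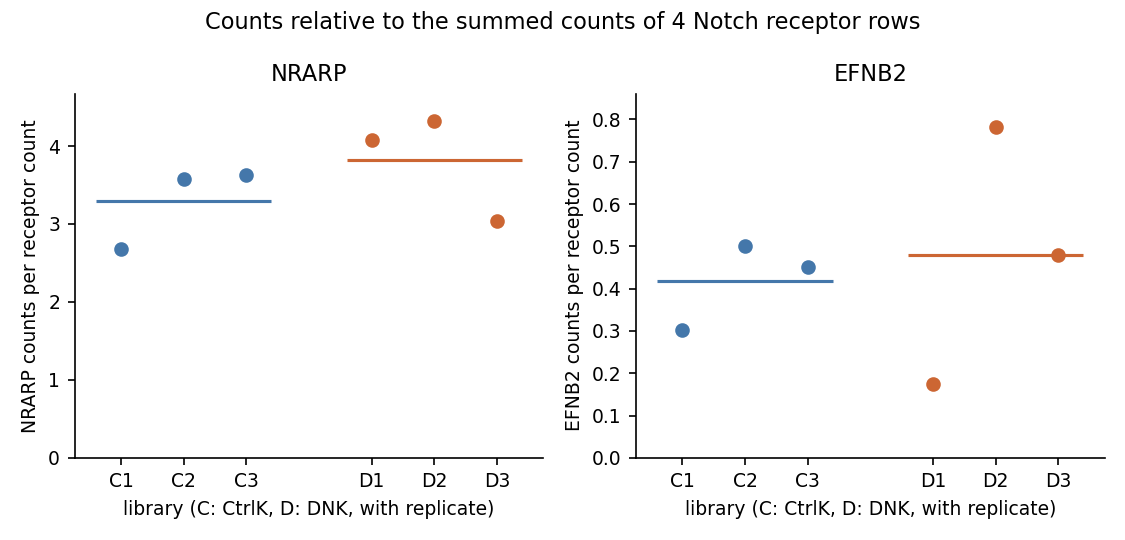
Counts of NRARP and of EFNB2 divided by the summed counts of the 4 Notch receptor rows in the same library (C1 to C3, CtrlK; D1 to D3, DNK), with group means as lines. The groups overlap for NRARP (2.68 to 3.63 in CtrlK, 3.04 to 4.33 in DNK) and for EFNB2, where DNK spans 0.175 to 0.782.

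Beside NRARP and EFNB2, the lists of Notch receptors, ligands, processing and signalling genes and targets held 85 rows, of which 26 could be tested. Of these 26, 4 rose and none fell by edgeR, where 7.12% of all tested genes were called, 4.72% rose and 2.40% fell. At an unadjusted p under 0.05 were 7 of the 26, where 942 of all 3792 tested genes were. The median log2 fold change of the 26 was 0.37, against −0.07 over all tested genes. All DNK libraries were above all CtrlK libraries for 7 of 26, against 16.2% of all tested genes. They were below for 2 of 26, against 14.6%. The count of called pathway genes was 3 by DESeq2 and 2 by limma-voom, where 303 and 184 of all tested genes were called. It was 0 without CtrlK replicate 2, 1 without CtrlK replicate 1, DNK replicate 1 or DNK replicate 3, 2 without DNK replicate 2, and 4 without CtrlK replicate 3. Over all tested genes these fits without 1 library called 89 to 277.

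Apart from the receptors, the 2 genes that rose encode corepressors. SPEN (ENSDARG00000074245), a corepressor that binds RBPJ, had 47, 37 and 59 counts in CtrlK and 115, 107 and 90 in DNK. Its groups did not overlap, and its log2 change was 1.22 ± 0.31 (SE, edgeR adjusted p = 0.0292). The other SPEN row (ENSDARG00000074332), too sparse to test, had 10 counts in CtrlK and 10 in DNK. ctbp1, a corepressor of the CtBP family, had 9, 5 and 15 counts in CtrlK and 76, 18 and 31 in DNK, which gave 2.2 ± 0.56 on the log2 scale (SE, edgeR adjusted p = 0.0292). DNK replicate 1, the lowest DNK library for EFNB2, was the highest for ctbp1. The other row named CTBP1 (ENSDARG00000019213) was at −0.70 ± 0.50 (SE) on that scale and did not pass (adjusted p = 0.410). Other corepressor rows did not pass, among them HDAC1, NCOR1 and both TLE3 rows, with log2 fold changes of 0.03 to 0.57. The coactivators EP300 (0.95 ± 0.40 for ENSDARG00000100666 and 0.87 ± 0.51 for ENSDARG00000061108) and KAT2B (−0.76 ± 0.33) did not pass (adjusted p = 0.156, 0.310 and 0.171). Components needed to make or release the signal, such as adam10a (0.25 ± 0.29), FURIN (−0.02 ± 0.27) and MIB1 (−0.04 ± 0.34), did not pass either. RBPJ itself was not tested. Its rows ENSDARG00000003398 and ENSDARG00000052091 had 7 and 16 counts in CtrlK and 12 and 21 in DNK.

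The calls of these genes rested on most of the libraries. NOTCH1 ENSDARG00000052094 no longer passed with one of 3 libraries left out, namely CtrlK replicate 1 (adjusted p = 0.0504), CtrlK replicate 2 (0.0589) and DNK replicate 3 (0.0642), and its log2 fold change was 3.07 when CtrlK replicate 3 was. The notch2 and SPEN calls were lost without each library except CtrlK replicate 3, with adjusted p up to 0.148 for notch2 and 0.104 for SPEN. For ctbp1 the adjusted p was 0.0786 with CtrlK replicate 1 left out, 0.0907 with CtrlK replicate 2 left out and 0.177, at a log2 fold change of 1.50, with DNK replicate 1 left out. With all libraries notch2 was not called by DESeq2 (adjusted p = 0.0876), by limma-voom (0.125), by edgeR with no filter (0.0836) or with library size alone (0.0763). With 5, 3 and 9 counts in CtrlK, notch2 passed the filter on low counts only through its DNK libraries. NOTCH1 ENSDARG00000052094 (4, 9 and 23 counts in CtrlK) and ctbp1 (9, 5 and 15) also needed their DNK libraries to pass it. These rows were thus tested because their DNK counts were high, which limits what their calls show. SPEN was not called with library size alone (0.0744) and ctbp1 not by limma-voom (0.0955). When libraries were scaled to the 200 most abundant genes, NOTCH1 ENSDARG00000052094 was the only one of these 4 still called (0.0365), with SPEN at a log2 fold change of 0.42 (0.319), notch2 at 0.145 and ctbp1 at 0.0766 adjusted p.

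Ligands did not pass. dlc, a delta ligand gene, had 30, 6 and 12 counts in CtrlK and 55, 32 and 38 in DNK, which came to 1.43 ± 0.52 on the log2 scale (SE, adjusted p = 0.104). jag2b stood at 0.36 ± 0.44 (adjusted p = 0.643), and dll4, a main endothelial Notch ligand, one of −0.25 ± 0.36 (adjusted p = 0.709). Of these 3 tested ligands 0 were called by edgeR, DESeq2 or limma-voom. An unadjusted p under 0.05 was found for 1, dlc, and for 942 of all 3792 tested genes.

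Other target genes gave little to set beside NRARP and EFNB2. Of 26 other target rows, 15 had no count in any library, among them her4.1, her4.2, her4.3 and her4.4, and only 2 were tested. HES4, a hairy-related repressor, had 28, 7 and 17 counts in CtrlK and 18, 25 and 39 in DNK, with 0.73 ± 0.52 on the log2 scale (SE, adjusted p = 0.411). HES1, a repressor of the same family, had 0.42 ± 0.55 (adjusted p = 0.676). By edgeR 0 of the 2 passed, none at an unadjusted p under 0.05 and 0 by DESeq2 or limma-voom. The hairy-related HEY genes were too sparse to test. HEY2 had 7 and 11 counts in the CtrlK and DNK libraries together, HEY1 7 and 4, and heyl 12 and 3. The heyl ratio of DNK to CtrlK was 0.230 (95% counting interval 0.0416 to 0.851), in the direction opposite to NRARP. That ratio is relative to all gene counts, and the TMM scaling used for NRARP would raise it and its limits. Of the other untested rows of the Notch lists, ADAM17 ENSDARG00000093093 (2.48, 1.16 to 5.74) and FBXW7 (0.360, 0.146 to 0.807) also had intervals that left out 1. These rows were picked from all untested ones of the 85, so some such intervals arise without a difference. The intervals cover counting only, whereas the median tested gene had 2.58 (CtrlK) and 2.00 (DNK) times the counting variance.

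**Figure D4:**
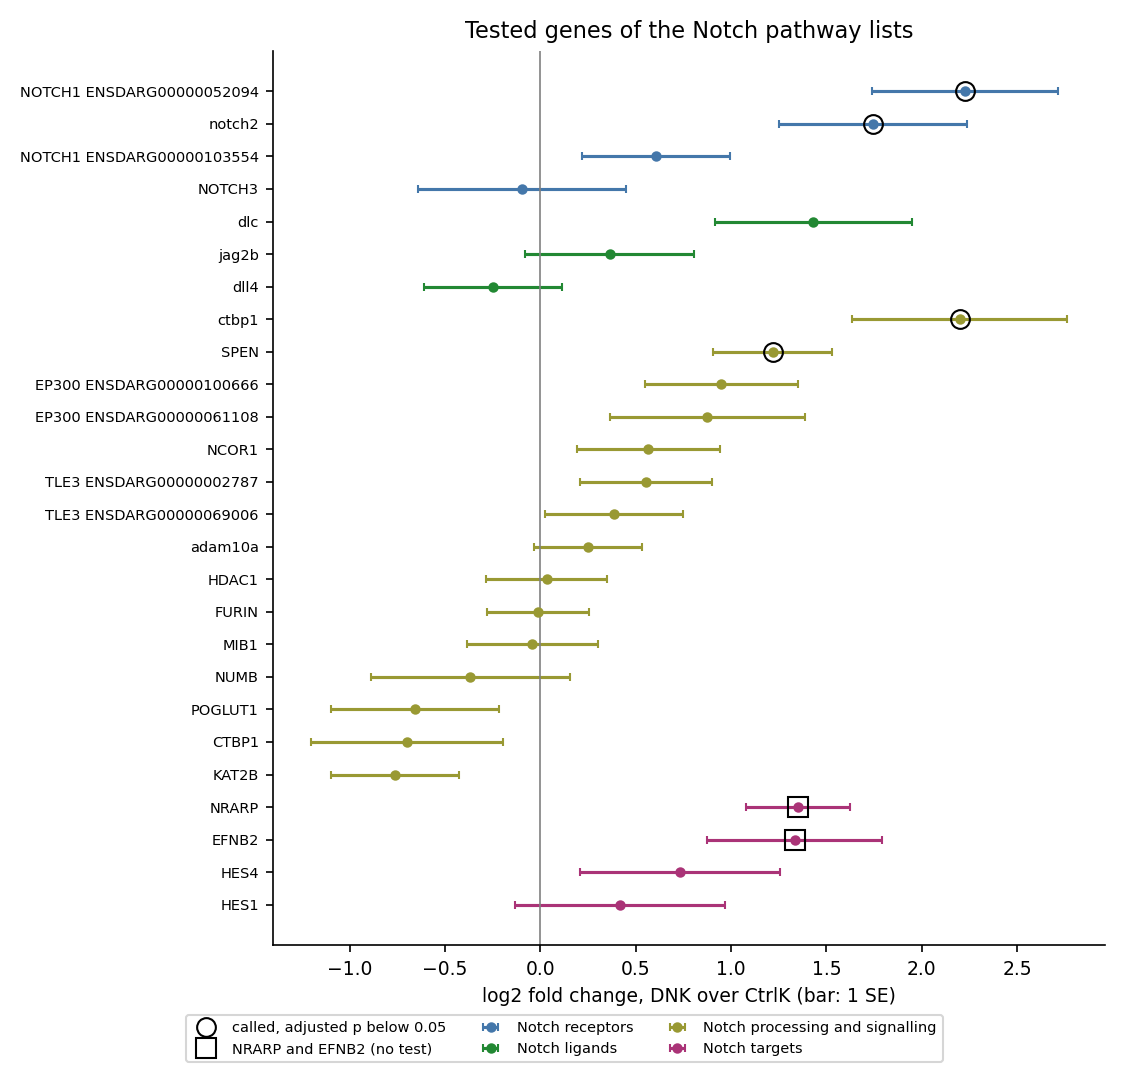
Log2 fold change (DNK over CtrlK) with 1 SE for tested rows of the Notch pathway lists, by role. Not every tested row is drawn. Circles mark the 4 called rows (NOTCH1 ENSDARG00000052094, notch2, ctbp1 and SPEN, at 1.22 to 2.23), squares NRARP (1.35) and EFNB2 (1.33), which were not tested.

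The ephrin and Eph receptor genes, the family of EFNB2, had no called gene in either direction. Of 28 rows beside EFNB2, 11 were tested, 4 had positive log2 fold changes and the median was −0.19. By edgeR 0 passed, with 0 at an unadjusted p under 0.05 (942 of all 3792 tested genes) and 0 by DESeq2 or limma-voom. EPHB3 (ENSDARG00000031548), an Eph receptor of the class that binds ephrin-B ligands, had 48, 122 and 112 counts in CtrlK and 79, 60 and 32 in DNK, for a log2 change of −0.60 ± 0.38 (SE, adjusted p = 0.353). EPHB2 (ENSDARG00000021539) had a log2 change of −0.56 ± 0.49 (adjusted p = 0.504) and EPHA4 (ENSDARG00000054454) one of 0.66 ± 0.44 (adjusted p = 0.371). The rows of EphB4, the venous receptor of ephrin-B2, had few counts. Relative to all gene counts, the ratio of DNK to CtrlK was 0.591 for ephb4a, on 14 counts in CtrlK and 9 in DNK (95% counting interval 0.226 to 1.47). It was 1.31 for ephb4b, on 7 and 10 counts (0.451 to 4.06). Other ephrin-B rows were almost empty, with 2 and 1 counts for EFNB1, 2 and 0 for EFNB3 and 1 and 0 for efnb3a.

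Genes that act with ephrin-B2 in vessels were mixed. Ephrin-B2 is known in mice to promote internalization of VEGF receptors in endothelium and to affect that of the PDGF receptor beta in mural cells. Of 10 tested rows in this list 1 rose, against 4.72% of all tested genes. It was PDGFRB, which is also a mural cell marker. It had 12, 13 and 16 counts in CtrlK and 37, 34 and 53 in DNK, and changed by 1.70 ± 0.40 on the log2 scale (SE, edgeR adjusted p = 0.0205). It no longer passed when CtrlK replicate 1 (0.0534), CtrlK replicate 2 (0.0630) or DNK replicate 3 (0.0915) was left out, or when scaled to the 200 most abundant genes (0.108, log2 fold change 0.93). The VEGF receptor genes did not pass, with log2 fold changes of 0.79 ± 0.42 for KDR, 0.60 ± 0.47 for kdrl, −0.65 ± 0.34 for flt1 and −0.44 ± 0.36 for FLT4 (adjusted p = 0.261, 0.452, 0.254 and 0.464). Among other arterial genes 4 rows were tested, namely dll4, dlc, AQP8 and VEGFC, and 1 of the 4 was positive, dlc, with a median of −0.40. By edgeR 0 passed, with 1 at an unadjusted p under 0.05 (942 of all 3792 tested genes) and 0 by DESeq2 or limma-voom.

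NRARP is also known, from zebrafish and Xenopus work, to bind and stabilize the Wnt pathway transcription factor LEF1. LEF1 itself was too sparse to test, with 10 counts in CtrlK and 7 in DNK, and a link of NRARP to the rows below was not tested. Of 6 tested rows of the Wnt list 1 rose, against 4.72% of all tested genes. This was AXIN2, a negative feedback gene of the Wnt pathway, with 20, 8 and 12 counts in CtrlK and 94, 22 and 35 in DNK. Like ctbp1, it needed its DNK libraries to pass the filter on low counts. Its groups did not overlap and its highest library was DNK replicate 1, as for NRARP and ctbp1. It changed by 1.98 ± 0.54 on the log2 scale (SE, edgeR adjusted p = 0.0413), and by 1.22 without DNK replicate 1 (adjusted p = 0.255). The adjusted p was 0.114, 0.0992 and 0.0520 with CtrlK replicate 2, CtrlK replicate 3 and DNK replicate 3 left out, and the gene was not called by limma-voom (0.0857), with library size alone (0.0715) or when scaled to the 200 most abundant genes (0.151). The other tested rows were CTNNB1, ctnnb2, APC, LRP5 and GSK3B, with log2 fold changes of −0.68 to 0.05, none of which passed.

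The genes with profiles most like NRARP over the 6 libraries, among 2264 named genes with at least 100 CPM on average, were not on the Notch lists. notch2, below that level, was not among the genes compared. They were EPAS1, the hypoxia-inducible factor HIF-2 alpha, COL1A2, a collagen I chain, the RNA helicase gene DDX6, the ubiquitin gene ubc and f8, coagulation factor VIII. Their root-mean-square differences were 0.11 for EPAS1, COL1A2 and DDX6, 0.13 for ubc and 0.14 for f8, and their log2 fold changes were 1.40, 1.54, 1.43, 1.48 and 1.56. COL1A2 is also the called row of the fibroblast and mural markers given above. For EFNB2 the closest was atf4a, a stress-response transcription factor gene, at 0.22, followed by zgc:175214 (0.33), the survival gene mcl1a (0.40), CHTOP (0.40) and CRIP2 (0.42). EFNB2 ranked 659 in closeness to NRARP among the 2264 genes, and NRARP ranked 227 in closeness to EFNB2, at the same distance. When each gene was centred within its group instead, none of the 5 genes nearest to NRARP remained. The likeness to NRARP thus rests largely on the group difference. Of the 5 nearest to EFNB2 1 remained, atf4a, at 0.19. The EFNB2 profile also holds spread within DNK, with replicate 1 at a log2 deviation of −1.14 from the group mean.

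The size of both differences depended on how libraries were scaled. The log2 fold change of NRARP was 1.04 with library size alone, 0.58 with scaling to the 200 most abundant genes and 1.75 with scaling to reads outside genes, and EFNB2 had 1.04, 0.61 and 1.71. These scalings moved the median of all tested genes to −0.39, −0.86 and 0.34. Relative to that median NRARP was at 1.41 to 1.44 and EFNB2 at 1.37 to 1.47 under the TMM fit and these 3 scalings. With that ratio of reads assigned to no gene entered as a covariate, NRARP had 0.27 ± 0.52 (SE) and EFNB2 1.36 ± 1.30 (SE). The ratio separates the groups, so its effect and that of the group cannot be told apart.

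**Figure D5:**
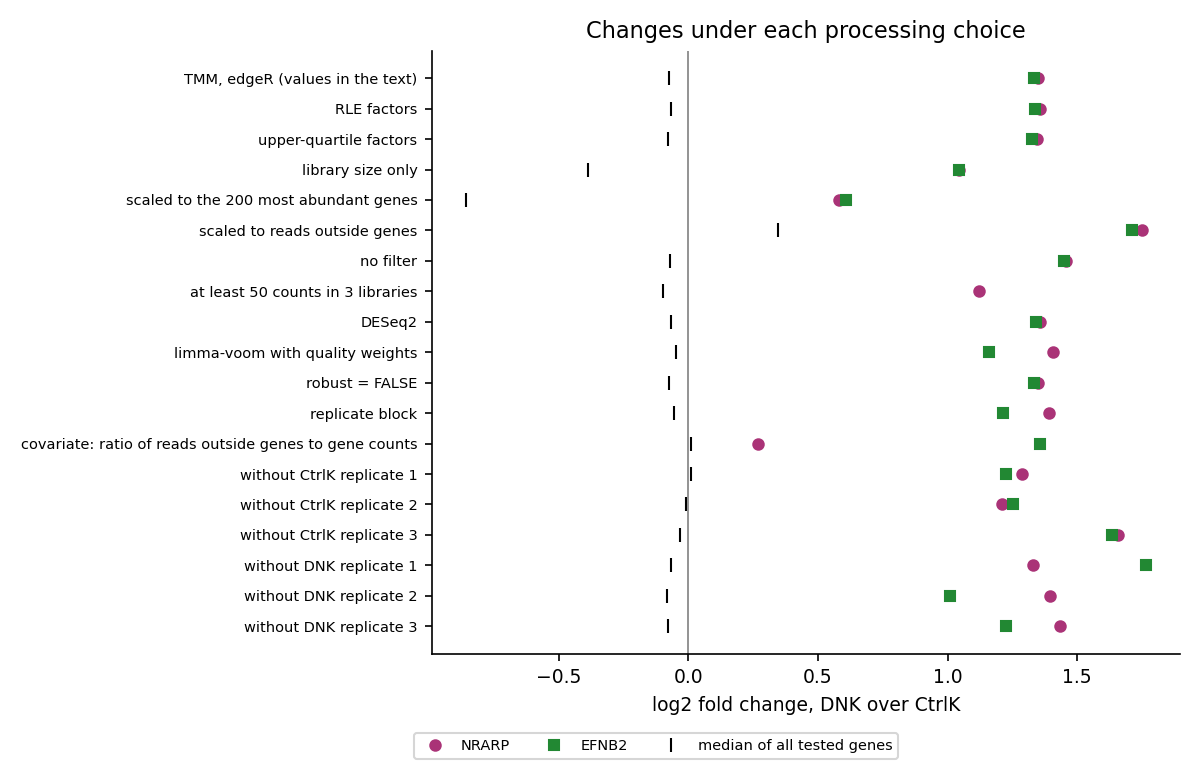
Log2 fold change (DNK over CtrlK) of NRARP and EFNB2 and the median of all tested genes under each processing choice. Both genes stay to the right of the median throughout, and NRARP comes nearest to it with the read-ratio covariate (0.27).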

How the data were processed

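The deposited tables hold raw counts per Ensembl gene, 1 table per library. The submitters' processing notes name HISAT2 2.1.0 and HTSeq 0.6.1, beside Trim Galore 0.6.0, DESeq2 1.22.2 and build GRCz11, with no order, and cDNA was amplified by MALBAC per the labels' protocols. The sources used here do not give the strand setting, the quality minimum or the annotation release, so copies and overlapping or antisense genes may share reads. The 5 rows that name no gene held 98.8% (CtrlK) and 98.5% (DNK) of each table's total and stayed out of library sizes and tests. Groups follow the sample titles. A table of gene IDs gave the names (29201 of 32520 named, 6136 sharing a name).

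Genes passing filterByExpr (3792) were tested with edgeR 4.0.16 (TMM, glmQLFit with robust = TRUE, glmQLFTest, R 4.3.3), with Benjamini-Hochberg adjustment over all of them and a threshold of 0.05. SE is the absolute log2 fold change over the square root of F. CPM uses TMM-scaled counts of the tested genes, and log2 CPM a prior count of 2. The fit was tested on simulated data. DESeq2 1.42.0, limma-voom (limma 3.58.1), other scalings, filters, a replicate block, a read-ratio covariate and leaving out each library were alternatives. No pair of libraries agreed within sampling noise (chi-square per degree of freedom 3.08 to 9.18). Members, lists and rules were chosen with earlier results of these data known, and list symbols were matched by symbol, human-style name or an alias. Named were the members, their copies, the receptors, called list members or the 2 smallest p, and the 5 genes most like each member. Some genes this rule takes and a few other results are left unreported. No genome or sequence table was used, so no coordinates or sequences are given.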

Additional observations from a re-analysis of the deposited data

How the results depend on the processing

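NRARP and EFNB2 kept a positive log2 fold change under each alternative that gave a value. With at least 50 counts in 3 libraries EFNB2 was not tested. NRARP moved by more than its spread between replicates when scaled to the 200 most abundant genes (0.58) or to reads outside genes (1.75), with the read-ratio covariate (0.27), and without CtrlK replicate 3 (1.66). Leaving out 1 library gave 1.21 to 1.66 for NRARP and 1.01 to 1.76 for EFNB2. The count of 270 called genes became 1079 when scaled to the 200 most abundant genes, where 5.10% were higher in DNK against 66.3% in the fit reported, 540 when scaled to reads outside genes (92.8% higher) and 0 by edgeR with the covariate (247 at an unadjusted p under 0.05). With library size alone 31.1% of calls were higher. Leaving out 1 library gave 89 (without DNK replicate 1) to 277. The count of 4 Notch pathway genes became 2 with library size alone and 2 with limma-voom. The filter of at least 50 counts in 3 libraries left NOTCH1 ENSDARG00000052094, notch2 and ctbp1 untested. There the count was 1, SPEN, which stayed called (edgeR adjusted p = 0.0346). Scaling raised the count to 6 (reads outside genes) or 5 (200 most abundant genes). Of those 5 only NOTCH1 ENSDARG00000052094 was one of the 4. With the covariate the count was 0 (1 at an unadjusted p under 0.05). Without 1 library it was 0 to 4 (5 at an unadjusted p under 0.05 without CtrlK replicate 2). In that last fit 887 of all 4287 tested genes had an unadjusted p under 0.05. ctbp1 reversed with the covariate (−0.29). The causes were not tested. With the replicate number as a block NRARP had 1.39, EFNB2 1.22, and 253 genes and 4 pathway genes were called, of which notch2 was not one (adjusted p = 0.0595). Same-numbered libraries did not deviate together (correlations of −0.11, −0.00 and −0.04), and no CtrlK library correlated best with its own number. The fit reported therefore used no pairing. Whether same-numbered libraries shared a preparation cannot be told from these correlations. At this depth most target genes of the pathway had too few counts to test.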

Other observations

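In the RefSeq annotation of assembly GRCz12tu, nrarpb lies on the same chromosome as notch1b with 5 protein-coding genes between them, while nrarpa and notch1a are on different chromosomes. The name table does not say which of the NRARP and NOTCH1 rows these are, so no neighbour relation is claimed for the rows described.

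DNK replicate 1 split the genes around the pathway. It was the highest DNK library for AXIN2 (94 counts), ctbp1 (76), EP300 ENSDARG00000061108 (55) and NRARP (465), and the lowest for EFNB2 (20), HES4 (18) and the other EP300 row, ENSDARG00000100666 (22). These genes were picked out after their values were seen, and the difference was not tested.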
